A study of Rattus norvegicus with 6 samples.

Results

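The cell cycle and mitosis genes described here are a list of 44 rat genes, from the G1 cyclins through the DNA replication helicase to the kinases and motors of the mitotic spindle. They were chosen by symbol, with earlier results of these data known. Of the 44, 38 had at least 1 probe whose accession could be matched to the gene, out of 15278 named genes. Of these 38 genes, 25 act in mitosis, 8 in DNA replication during S phase and 5 in the passage from G1 to S, and together they had 76 probes. Mcm5, Bub1b, Melk, Ect2, Mki67 and Top2a had no matched probe, so they enter the promoter counts where a promoter is listed but have no expression value here, and the values lack the widely used proliferation marker Ki-67.

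RNA came from the livers of 6 male Sprague-Dawley (Crl:CD(SD)) rats, bought at 5 weeks of age. A group of 3 received the vehicle, corn oil, and a group of 3 received BBMP at 1000 mg/kg/day. BBMP is 2,2-Bis(Bromomethyl)-1,3-Propanediol, used as a flame retardant. The labels give the length of treatment both as 28 days and as 9 weeks. Each liver was hybridised to 1 Agilent 1-colour array. A value below is the log2 of a probe's processed signal minus the log2 of the same array's 75th percentile, so that 0 is the signal at that percentile and -4 is a dim probe. That percentile was 450.1 to 570.4 intensity units, and 60.1% to 64.4% of 61573 probes per array were well above background. All 7 hepatocyte markers checked, Alb and Ttr among them, were well above background on all 6 arrays. The corn oil arrays shared 1 slide and scan and the BBMP arrays another, so for every difference below, treatment and slide cannot be told apart. In whole liver RNA, more cycling cells and more RNA per cycling cell cannot be told apart either.

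Cells enter the cycle when cyclin D and cyclin E kinases release E2F transcription factors, which switch on genes for DNA replication such as the MCM helicase. Later, cyclin A and cyclin B with CDK1 drive entry into mitosis, where checkpoint kinases, spindle motors and the anaphase promoting complex act in turn. Adult hepatocytes are mostly outside the cycle, and many are polyploid because replication or nuclear division was not followed by cell division.

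Both gene classes are known for different promoter elements, so the promoters of members on which the results turn are shown. Replication genes are known for E2F sites, searched as TTTNNCGC. Genes of the late cycle are known for the cell cycle genes homology region, searched as TTTGAA, and for CCAAT boxes. Each motif was searched on both strands from 250 bases before to 50 bases after the RefSeq start (GRCr8), and matches of different motifs may overlap, as TTTNNCGC and CCAAT do in Mcm7. The 120 bases before the start are printed, with the matches in capitals on whichever strand they lie. They are at chr3:126254576-126254695 (plus strand) for Knstrn, chr2:33655226-33655345 (minus strand) for Ccnb1, chr20:19265173-19265292 (plus strand) for Cdk1 and chr1:143659361-143659480 (plus strand) for Prc1. The others are at chr9:120776084-120776203 (minus strand) for Tyms, chr4:122918095-122918214 (minus strand) for Mcm2 and chr12:22163179-22163298 (minus strand) for Mcm7.
Knstrn: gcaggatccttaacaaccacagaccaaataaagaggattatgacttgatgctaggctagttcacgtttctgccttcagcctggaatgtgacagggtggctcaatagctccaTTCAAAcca
Ccnb1: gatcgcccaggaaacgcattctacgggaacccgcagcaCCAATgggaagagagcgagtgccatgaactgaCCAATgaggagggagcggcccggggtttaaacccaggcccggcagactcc
Cdk1: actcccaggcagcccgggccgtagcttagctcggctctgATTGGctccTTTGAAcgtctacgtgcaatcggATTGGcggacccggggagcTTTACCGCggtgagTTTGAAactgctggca
Prc1: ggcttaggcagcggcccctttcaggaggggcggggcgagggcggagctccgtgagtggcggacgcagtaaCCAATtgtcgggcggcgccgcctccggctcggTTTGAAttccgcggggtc
Tyms: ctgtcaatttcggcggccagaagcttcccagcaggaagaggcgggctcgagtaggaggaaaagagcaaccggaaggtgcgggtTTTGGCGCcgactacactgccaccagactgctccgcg
Mcm2: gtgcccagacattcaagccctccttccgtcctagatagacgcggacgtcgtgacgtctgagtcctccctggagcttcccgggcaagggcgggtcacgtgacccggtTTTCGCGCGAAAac
Mcm7: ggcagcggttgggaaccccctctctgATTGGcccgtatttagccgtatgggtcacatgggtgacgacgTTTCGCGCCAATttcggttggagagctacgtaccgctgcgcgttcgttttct

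A promoter was listed for 34 of the 44 genes. A member was counted if any promoter listed for it held the motif. The shares over all promoters are per promoter, for 33469 promoters of 27457 symbols, so the units differ. TTTGAA was present in 17 of the 25 mitosis genes with a promoter (68%) and in 1 of 7 S phase genes (14.3%), against 18.3% of all promoters. TTTNNCGC was present in 6 of 7 S phase genes (85.7%), including all 5 MCM genes with a promoter (Mcm2, Mcm3, Mcm5, Mcm6 and Mcm7). It was present in 4 of 25 mitosis genes (16%), against 4.92% of all promoters. CCAAT was present in 18 of 25 mitosis and 5 of 7 S phase genes, against 37.5% of all promoters. Knstrn carries TTTGAA on the reverse strand, 9 bases before its start, and Cdk1 carries it at 72 and at 16 bases before. Ccnb1 has 2 CCAAT boxes and no TTTGAA in the window. Among tested mitosis members, the 12 with TTTGAA had a median log2 difference between BBMP and corn oil of 0.50 and the 6 without it a median of 0.71.

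The comparison asks whether genes of cell division differed in liver after BBMP, and whether S phase genes did so like mitotic genes. Mitosis genes were mostly higher in the BBMP livers, with cyclin B1 (Ccnb1) at 2.29-fold, the mitotic entry factor Cdca3 and the kinase Cdk1 at 1.89-fold each, and the kinesin Kif20a at 1.88-fold. MCM helicase genes had smaller differences, whose sign depended on the probe for 3 of them. For Mcm4, 1 of the 3, this rests on a probe too dim in 1 corn oil liver. Of the 25 mitosis members with a probe, 24 had a mean above that of corn oil livers, where 43.1% of all 45793 features did. Of the 8 S phase members 4 were above and 4 below, but 6 were above and 2 below with the mean of each gene's probes, without corn oil 3 or without BBMP 2. Of the 5 G1/S members 1 was above and 4 below. This count also moved: 3 were above and 2 below without corn oil 3 or without BBMP 2, and 0 were above and 5 below with normexp background correction. No single member passed the test over all features: the smallest limma adjusted p was 0.314. For each difference below, the error is the SE from limma.

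Testing required a probe that stood well above background in all 3 livers of 1 group or both, which 35 of the 38 members met. Of these, 30 were well above background on all 6 arrays and 5 (Ccne2, Mcm6, Ccnb2, Tpx2 and Racgap1) passed through the BBMP group alone. The probes of Aurkb, Cdca8 and Kif2c were too dim to be tested. Over all 28112 tested features, limma with Benjamini-Hochberg adjustment called 2 (0.00711%), and none of them was a member. At an unadjusted p under 0.05, 14 of the 35 tested members were higher after BBMP and 0 were lower, where 4.7% of all tested features were higher and 6.1% lower. Of the 14, 12 were mitosis genes, and Tpx2 among them passed through the BBMP group alone. Among the 30 members above background on all 6 arrays, 13 were higher and 0 lower at that p. Over all 26581 such features, 1175 were higher and 1660 lower. Without BBMP 3, 9 members were higher and 1 lower at that p, and with normexp background correction of the median spot signal 8 were higher, 6 of them mitosis genes, and 1 lower. The 22 tested mitosis members were all above 0 here, but 20 of them were without BBMP 3 and 19 with normexp. The groups did not overlap, with every BBMP liver above every corn oil liver, for 13 of 35 tested members and for 8.25% of all tested features. With the filter on all 6 arrays these were 12 of 30 members and 2114 of 26581 features. Above 0 lay 47.5% of all tested features and 46.9% of those above background on all 6 arrays, where 19 of 19 mitosis members did. No member was lower in every BBMP liver than in every corn oil liver, against 9.6% of all tested features.

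**Figure D1:**
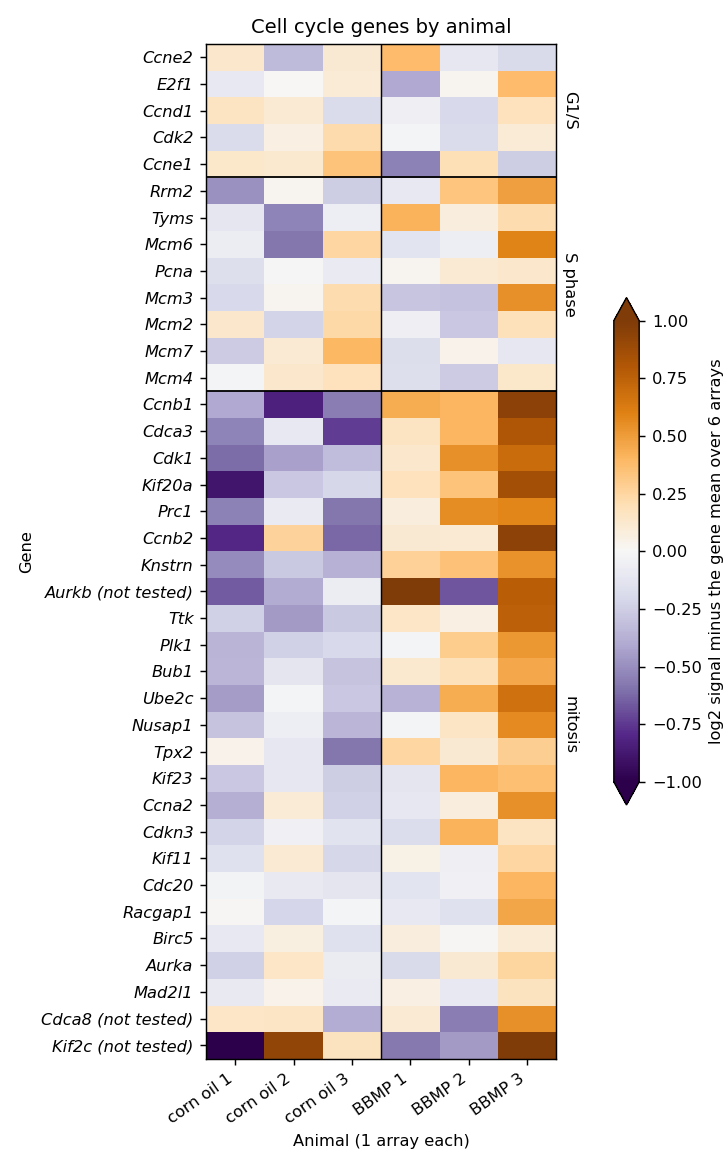
Heat map of the 38 members with a probe (rows, grouped by phase and ordered by difference) in the 6 animals (columns), as log2 signal minus the gene's mean over the 6 arrays; colours are clipped at -1 and 1. The mitosis rows are mostly below their mean in corn oil livers and above it in BBMP livers, with BBMP 3 the highest animal in 22 of 25 rows. The G1/S rows hold no such block. Among S phase rows, Pcna, Rrm2 and Tyms are mostly lower in corn oil and higher in BBMP livers, and the MCM rows as a group are not.

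Among the mitotic cyclins and their kinase, differences ran from 0.27 to 1.20. Ccnb1, which encodes cyclin B1 and had the largest difference of the tested members, had log2 signals of -4.06, -4.48 and -4.21 in corn oil livers 1 to 3 and of -3.21, -3.25 and -2.71 in BBMP livers 1 to 3. The groups did not overlap, and the difference was 1.20 ± 0.19 (limma adjusted p = 0.314). The probe is dim: the lowest signal well above background on the corn oil arrays lay between -5.40 and -4.89, and with normexp the difference was 0.47. Cdk1, the kinase that cyclin B activates, was brighter, at -1.55, -1.37 and -1.26 in corn oil livers and -0.81, -0.39 and -0.24 in BBMP livers. All 3 BBMP livers lay above the corn oil livers, with a difference of 0.92 ± 0.17 (limma adjusted p = 0.314), and with normexp it was 0.78. Ccnb2, cyclin B2, had a mean difference of 0.77 ± 0.35 but overlapped, because corn oil 2 at -3.76 lay above BBMP 1 at -3.91 and BBMP 2 at -3.92. Ccna2, the cyclin of S phase and G2, differed by 0.34 ± 0.21, and its 3 measurable probes gave 0.24 to 0.35. Cdkn3, a phosphatase that acts on CDKs, differed by 0.27 ± 0.16.

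Knstrn, a spindle and kinetochore protein, had the smallest p of all members. Its log2 signals were -2.73, -2.49 and -2.59 in corn oil and -1.96, -1.88 and -1.69 in BBMP livers. The gap between the groups was wider than the spread within either, and the difference was 0.77 ± 0.12 (limma adjusted p = 0.314). Prc1, which bundles the microtubules of the central spindle, was at -4.29, -3.82 and -4.33 in corn oil livers and at -3.67, -3.19 and -3.16 in BBMP livers. It differed by 0.80 ± 0.20 without overlap, from a dim probe that gave 0.18 with normexp. Kif20a, a kinesin of cytokinesis, was at -3.95, -3.34 and -3.27 against -2.89, -2.72 and -2.21, a difference of 0.91 ± 0.25, and 0.41 with normexp. Nusap1, a microtubule-binding spindle protein, was at -2.67, -2.43 and -2.72 in corn oil livers. In BBMP livers Nusap1 was at -2.39, -2.22 and -1.81, a difference of 0.47 ± 0.18, with BBMP 1 only just above corn oil 2.

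The other spindle and cytokinesis members gave smaller values. Tpx2, a spindle assembly factor, differed by 0.43 ± 0.17 without overlap, but its probe was well above background in 1 of 3 corn oil livers. Kif23, a motor of the central spindle, differed by 0.43 ± 0.16, and Kif11, the motor that separates the spindle poles, by 0.17 ± 0.13. Racgap1, the partner of Kif23 in the central spindle, differed by 0.15 ± 0.18 with its brightest probe. Another probe of Racgap1 gave 1.42, and it was well above background in 1 corn oil liver and all 3 BBMP livers. All 6 mitosis genes with more than 1 measurable probe had every such probe above 0, so the Racgap1 probes differ in size and not in sign. Kif2c was well above background in 1 liver of 6, and its brightest probe gave -0.01.

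Among checkpoint and mitotic kinases, Bub1, Plk1 and Ttk were higher in every BBMP liver. Bub1, a spindle checkpoint kinase, was at -2.71, -2.48 and -2.66 in corn oil livers and at -2.25, -2.18 and -1.91 in BBMP livers, a difference of 0.51 ± 0.13 (limma adjusted p = 0.388). Plk1, the polo-like kinase of mitotic entry and exit, was at -1.64, -1.52 and -1.48 against -1.30, -0.99 and -0.76, a difference of 0.53 ± 0.15 (limma adjusted p = 0.406). Ttk, which starts the spindle checkpoint signal, was at -3.74, -3.95 and -3.77 against -3.36, -3.44 and -2.74, a difference of 0.64 ± 0.20 (limma adjusted p = 0.406). The 3 genes share the highest animal, BBMP 3, and with normexp their differences were 0.21, 0.25 and 0.22. The remaining kinase and checkpoint members were near 0 and overlapped: 0.12 ± 0.16 for Aurka, 0.12 ± 0.10 for the chromosomal passenger Birc5 and 0.09 ± 0.11 for Mad2l1, the inhibitor of anaphase. Aurkb and Cdca8, which belong to the same passenger complex as Birc5, were not well above background in any liver.

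Members linked to ubiquitin-dependent proteolysis were uneven. Cdca3, a trigger of mitotic entry, was at -2.57, -2.13 and -2.77 in corn oil livers and -1.87, -1.63 and -1.22 in BBMP livers, a difference of 0.92 ± 0.23 (limma adjusted p = 0.386) without overlap. Ube2c, the ubiquitin-conjugating enzyme of the anaphase promoting complex, differed by 0.50 ± 0.28, with BBMP 1 at -3.50 inside the corn oil range. Cdc20, which activates that complex, differed by 0.16 ± 0.16, with BBMP 3 alone at -0.58 and the other 5 livers between -1.11 and -1.01.

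**Figure D2:**
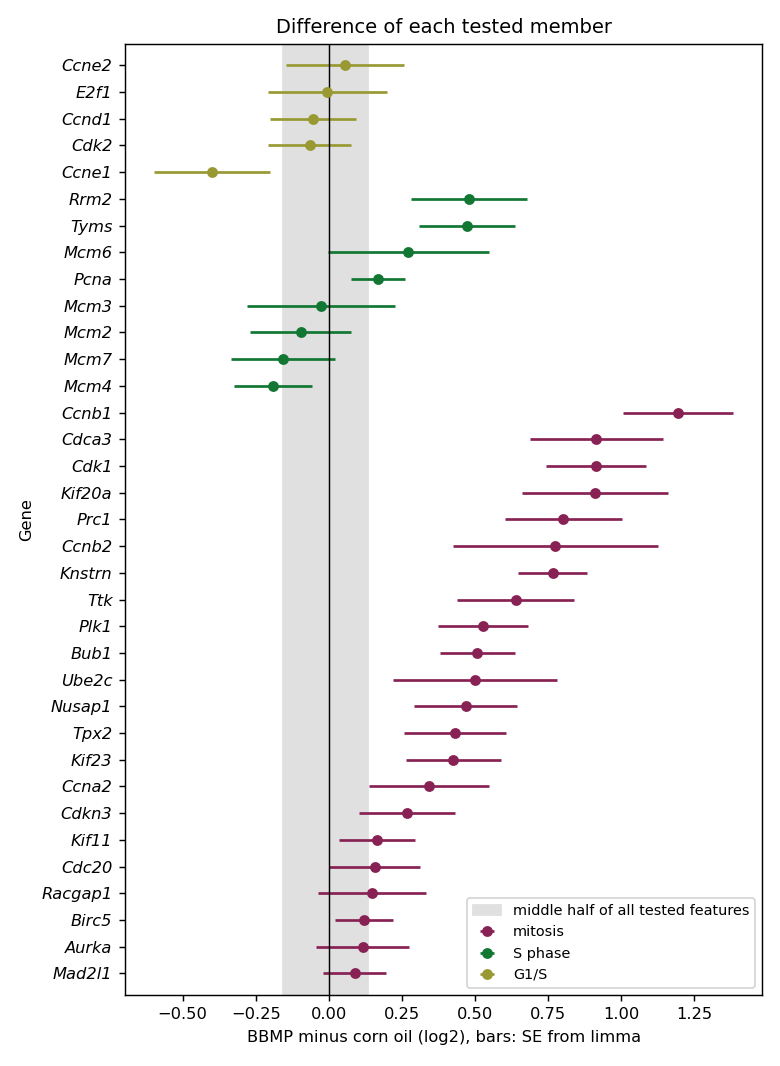
Difference between BBMP and corn oil livers (x axis, log2; bars are the SE from limma, n = 3 against 3) for the 35 tested members (y axis), coloured by phase; the grey band is the interquartile range of all tested features. Mitosis genes run from 0.09 for Mad2l1 to 1.20 for Ccnb1, while, with the probe plotted, 4 of 5 MCM genes and 4 of 5 G1/S genes lie below 0.

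Among S phase members, the MCM genes encode the replicative helicase, and with the brightest probe of each 4 of 5 had a mean below that of corn oil livers: -0.10 ± 0.17 for Mcm2, -0.03 ± 0.25 for Mcm3, -0.19 ± 0.13 for Mcm4 and -0.16 ± 0.18 for Mcm7. Mcm4 was at -0.21, -0.06 and -0.01 in corn oil livers and at -0.35, -0.45 and -0.05 in BBMP livers, so the groups overlapped. Mcm3 was at -0.73, -0.50 and -0.31 in corn oil livers and at -0.81, -0.82 and 0.02 in BBMP livers, with BBMP 3 apart from the other BBMP livers. Mcm2 was at -1.69, -2.05 and -1.59 against -1.88, -2.10 and -1.64. Other measurable probes of Mcm2, Mcm3 and Mcm4 went either way, up to 0.59 for Mcm2, 0.16 for Mcm3 and 0.15 for Mcm4, so no direction holds for these 3 genes. Mcm6 was dim, at -4.29, -4.81 and -3.98 in corn oil livers and -4.35, -4.28 and -3.63 in BBMP livers. Its difference was 0.27 ± 0.28, and -0.06 with normexp.

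Genes for nucleotide supply and the polymerase clamp lay above the corn oil level. Rrm2, the ribonucleotide reductase subunit that limits dNTP supply, was at -0.76, -0.25 and -0.53 in corn oil livers and at -0.37, 0.06 and 0.21 in BBMP livers. The difference was 0.48 ± 0.20 (limma adjusted p = 0.462), with overlap of BBMP 1 and corn oil 2, and a dimmer measurable probe gave 0.11. Tyms, thymidylate synthase, was at -1.63, -2.05 and -1.57 against -1.10, -1.44 and -1.30. The groups did not overlap, and the difference was 0.47 ± 0.17 (limma adjusted p = 0.426). Pcna, the sliding clamp of DNA polymerase, was at 1.08, 1.22 and 1.16 against 1.25, 1.34 and 1.37, also without overlap. Its difference was small, 0.17 ± 0.09 (limma adjusted p = 0.548), with 0.24 for its other probe.

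No G1/S regulator passed the test, and the groups overlapped for all 5. Ccnd1, cyclin D1, was a bright signal at 3.55, 3.49 and 3.20 in corn oil livers and at 3.34, 3.19 and 3.56 in BBMP livers. The difference of Ccnd1 was -0.05 ± 0.15, and its other probes gave -0.16 and 0.01. Ccne1, cyclin E1, was at -1.94, -1.95 and -1.73 against -2.62, -1.88 and -2.33. This was the lowest difference of all members, -0.40 ± 0.20 (limma adjusted p = 0.511), with BBMP 2 inside the corn oil range. E2f1, the transcription factor of S phase genes, was at -2.15, -2.05 and -1.95 against -2.46, -2.03 and -1.68, with a wide spread among BBMP livers and no mean difference. Its other measurable probes gave 0.04 and 0.39. Cdk2, the kinase of cyclins E and A, differed by -0.07 ± 0.14 and Ccne2, cyclin E2, by 0.06 ± 0.20.

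Animals were compared by a score, the mean over a group's members of the log2 signal minus the gene's mean over the 6 arrays, with no test. The mitosis score covered 25 genes, of which Aurkb, Cdca8 and Kif2c were too dim to be tested. It was -0.36, -0.08 and -0.28 in corn oil livers 1 to 3 and 0.06, 0.12 and 0.55 in BBMP livers 1 to 3. The groups did not overlap, but corn oil 2 and BBMP 1 were close, and BBMP 3 stood far above the other BBMP livers. The mean difference was 0.48, and 0.33 without BBMP 3. The S phase score over 8 genes was -0.15, -0.13 and 0.11 in corn oil and -0.06, -0.04 and 0.27 in BBMP livers. These overlapped, with a mean difference of 0.12 that was 0.01 without BBMP 3 and 0.20 without corn oil 3. Leaving out any other single array gave 0.07 to 0.17. The mitosis score minus the S phase score, which a constant shift of an array cannot move, was -0.21, 0.05 and -0.39 in corn oil and 0.11, 0.16 and 0.27 in BBMP livers. It did not overlap either, and its mean difference was 0.36, or 0.26 to 0.48 without 1 array, lowest without corn oil 3. With normexp the difference in the mitosis score was 0.21 and that in mitosis minus S phase 0.16. Over the tested members only, without normexp, these differences were 0.51 and 0.39.

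**Figure D3:**
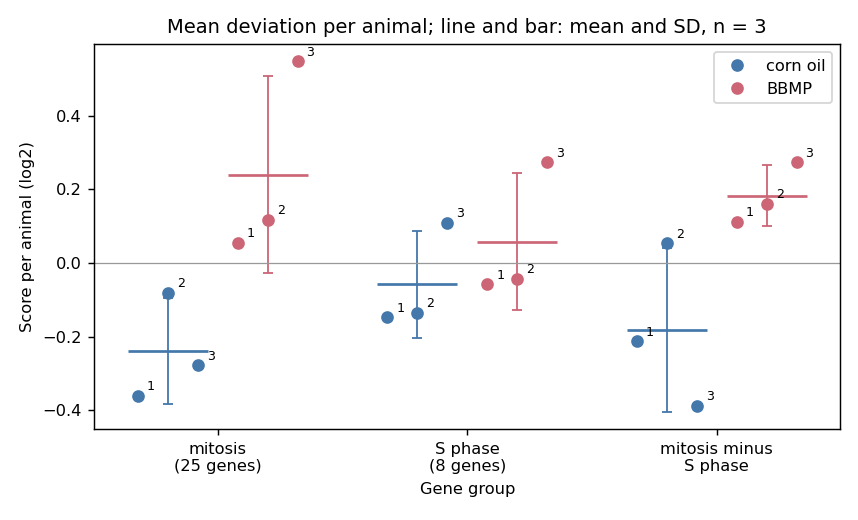
Scores per animal (y axis, log2; numbers mark the animal) for mitosis genes, S phase genes and their difference (x axis), with the group mean as a line and the SD as a bar (n = 3). BBMP livers lie above all corn oil livers for mitosis and for mitosis minus S phase, and the groups overlap for S phase.

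BBMP 3 was the highest of the 6 animals for 22 of 25 mitosis members, where it was the highest for 16% of all tested features. The sets are not alike, because the 25 include Aurkb, Cdca8 and Kif2c, which were too dim to be tested. Corn oil 1 was the lowest for 12 of the 25. BBMP 3 also had the highest 75th percentile, 570.4 intensity units, the highest summed level of mitosis probes and the highest macrophage score. In multiples of the array's 75th percentile, the 25 mitosis probes summed to 3.69 to 4.29 in corn oil livers and 4.64 to 6.42 in BBMP livers, and the 8 S phase probes to 8.70 to 11.5 and 9.41 to 10.8. Within the MCM genes, the score was high in corn oil 3 at 0.25 and in BBMP 3 at 0.27, and between -0.17 and -0.08 in the other 4 livers. The score of Pcna, Rrm2 and Tyms was -0.25, -0.18 and -0.13 in corn oil and 0.11, 0.17 and 0.28 in BBMP livers, without overlap, a difference of 0.37 against -0.04 for the MCM genes. That difference between the S phase classes was not tested.

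Markers of other cell types that can divide in liver were read beside the mitosis genes. Over all tested features 47.5% were higher after BBMP. At an unadjusted p under 0.05 by limma, 4.7% of all tested features were higher and 6.1% lower. Of the 11 tested macrophage and Kupffer cell markers 10 were higher after BBMP, with 0 past adjusted p 0.05 and 0 at an unadjusted p under 0.05 by limma. Their scores overlapped, at -0.40, -0.33 and 0.31 in corn oil and 0.25, -0.30 and 0.49 in BBMP livers, and their summed level ran from 121 to 184 and from 136 to 200.4. Of the 6 tested erythroid precursor markers 2 were higher, and Gata1 and Trim10 were not well above background in any liver. Summed erythroid levels overlapped, at 3.79 to 6.46 in corn oil and 2.38 to 7.16 in BBMP livers. T and NK cell markers were higher in 3 of 8 cases, with summed levels of 3.74 to 5.05 and 3.22 to 4.40. B and plasma cell markers were higher in 0 of 4, with summed levels of 0.81 to 1.25 and 0.56 to 1.16. Endothelial markers were higher in 5 of 6, with summed levels of 40.5 to 49.8 and 43.9 to 50.2, and their part in the mitosis values, like that of macrophage markers, was not tested. Summed stellate cell and fibroblast markers were at 47.4 to 52.1 in corn oil and 39.1 to 45.3 in BBMP livers, but their scores overlapped, at -0.01, 0.07 and 0.07 against 0.11, -0.13 and -0.11. Of their 10 tested markers 4 were higher and 6 lower, 3 of the latter at an unadjusted p under 0.05 by limma, with Lum not well above background in any liver. Neutrophil markers were higher in 0 of 3, with summed levels of 1.78 to 3.86 and 1.21 to 2.03, and cholangiocyte markers in 2 of 6, with 12.1 to 14.4 and 12.6 to 13.8.

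Other genes of the cell cycle, from longer lists also chosen with earlier results known, were less uniform. Of 73 other mitosis genes 37 were tested; 23 were higher and 14 lower after BBMP, with a median difference of 0.09, and 0 passed limma's adjusted p of 0.05. At an unadjusted p under 0.05, 6 were higher and 2 lower, where 4.7% of all tested features were higher and 6.1% lower. The highest by p were Ckap2, a spindle microtubule protein (1.16 ± 0.24), the separase inhibitor Pttg1 (0.69 ± 0.17) and the spindle motor Kifc1 (0.71 ± 0.18), all without overlap. Ccnf, cyclin F, went the other way without overlap, at 0.44, 0.79 and 0.43 in corn oil and 0.01, 0.06 and -0.20 in BBMP livers, a difference of -0.60 ± 0.14 (limma adjusted p = 0.379). Foxm1, a transcription factor of late cell cycle genes, differed by -0.18 ± 0.12, also without overlap, and was chosen after its values were seen. Of the 37 tested, 5 were higher and 3 lower without overlap, against 8.25% and 9.6% of all tested features.

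Of 44 other replication genes 35 were tested, 17 higher and 18 lower, with a median of -0.00 and the histone mRNA-binding protein gene Slbp (0.25 ± 0.10) first by p. Of 20 other G1/S genes 13 were tested, 7 higher and 6 lower. Ccnd2, cyclin D2, was first by p at 0.51 ± 0.15, and E2f3 was next and went the other way, at -0.35 ± 0.15. Of the 13, only Ccnd2 was higher and only E2f3 lower without overlap, against 8.25% and 9.6% of all tested features. Of the 10 CDK inhibitors and pocket proteins 9 were tested, 6 higher and 3 lower. Cdkn2c, an inhibitor of CDK4 and CDK6, was first by p at 0.34 ± 0.14. Cdkn2d was next and went the other way, at -0.34 ± 0.17, and Cdkn1a, the p53-induced inhibitor p21, was at -0.11 ± 0.10. The groups overlapped for all of these genes. In these 3 lists 0 genes passed limma's adjusted p of 0.05, and 1, 1 and 0 were higher at an unadjusted p under 0.05, with 0 lower. Of all tested features 4.7% were higher and 6.1% lower at that p. The median over all tested features was -0.01.

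**Figure D4:**
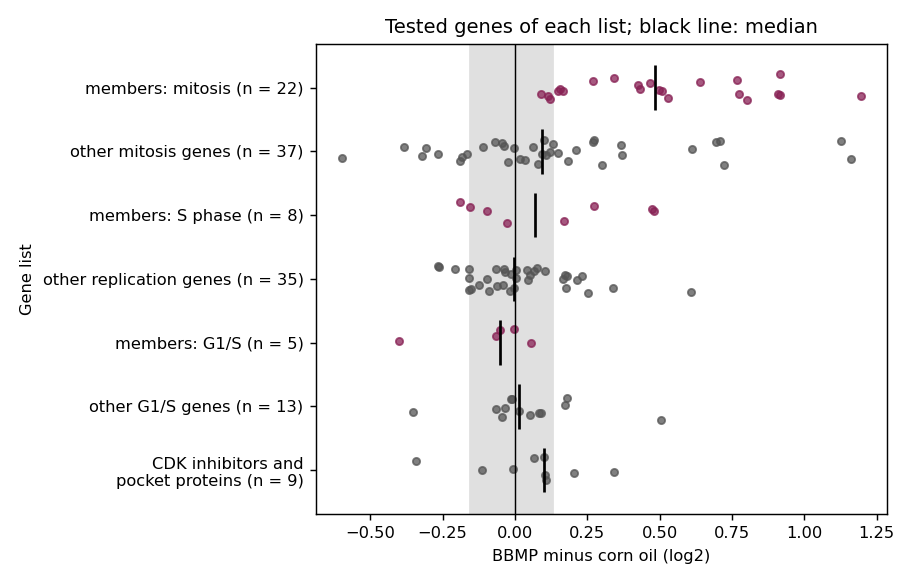
Differences between BBMP and corn oil livers (x axis, log2) of the tested genes in each list (y axis, number of tested genes in brackets), with the median as a black line and the interquartile range of all tested features as a grey band. The 22 tested mitosis members lie above 0 with a median of 0.48, while the 37 other mitosis genes lie on both sides with a median of 0.09 and both replication lists centre near 0.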

How the data were processed

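Liver RNA of 3 corn oil and 3 BBMP rats was measured on Agilent design 035170. Per the file headers, Feature Extraction 10.7.1.1 made the processed signal and fitted a spatial trend on each array; the deposited scanner files hold linear intensity, not normalised between arrays, and 0 or 1 flags. Version 10.7 of that software stands in the submitters' processing notes. The authors' value table, used as an alternative, holds linear intensity: dividing the processed signal by it gave 1 constant per array, close to the 75th percentile used here, no gene being centred, and its columns had medians of 0.0971 to 0.1005; its software is not given in the sources used here.

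Control spots (1319), 84 spike-in spots and outlier spots (at most 21 per array) were left out. Unversioned accessions were matched to RefSeq symbols (GRCr8), which named 27447 probes (44.6%). A gene took its tested probe with the highest mean. The comparison was fitted in limma 3.58.1 (R 4.3.3, lmFit, eBayes, two-sided) and p-values were adjusted by Benjamini-Hochberg over all 28112 features. In simulated data with 200 features changed, limma recovered 58.3% of changes of log2 1 and 93.8% of log2 2. False calls were 5.36% and 5.63%, and changes smaller than log2 1 were not simulated. Tables used Python 3.11.15. With 3 animals a group, the number of arrays limits the precision. Members, lists and tests were chosen with earlier results of these data known. Values per animal were printed for the 10 mitosis and 6 other members with the smallest p and for members whose probes differ in sign; up to 4 genes of smallest p stand for each other list. Alternatives covered scaling, background correction, filter, probe choice, variance model, pairing and each left-out array.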

Additional observations from a re-analysis of the deposited data

How the results depend on the processing

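Over all features, 2 passed; normexp, run on the median spot signal because the files used here carry no mean, gave 0, no filter on dim probes 1, the filter on all 6 arrays 0 and the replicate block 0, and leaving out 1 array gave 0 to 4. The count of members passing was 0 in every setting run. Animals of the same number had correlated deviations of 0.0894, 0.0159 and 0.0719, not always the best match, so the block rests on a number only. The mitosis score difference of 0.48 was 0.21 with normexp, and mitosis minus S phase went from 0.36 to 0.16; other settings kept both within 1 SD, the former from 0.33 to 0.57 without 1 array. Of 20 members given by animal, 5 changed sign somewhere. Mcm6 went to -0.060 with normexp. E2f1 went to 0.0047 with quantile scaling, 0.011 with median scaling and 0.14 with the mean of probes, which gave 0.21 for Mcm2 and 0.026 for Mcm3. Without 1 array, Ccnd1 ran from -0.16 to 0.035, E2f1 from -0.19 to 0.20, Mcm2 from -0.23 to 0.018 and Mcm3 from -0.30 to 0.11. The normexp setting also changed the signal from processed to median spot signal. The cause was not tested. Signal over background limits Ccnb1, Ccnb2, Prc1, Tpx2, Racgap1, Mcm6 and Ccne2 most.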
